A study of Mus musculus with 12 samples.

Results

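The 10 genes described here encode the enzymes that turn citrate or acetate into long-chain fatty acids, with a transcription factor that controls them. They are Acly, Acss2, Acaca, Acacb, Fasn, Me1, Elovl6, Scd1, Scd2 and Mlxipl. They were chosen by gene symbol, and each symbol matched 1 of the 24890 features in every table. All 10 passed the filter on low values, as 13175 features did. Transcripts had been measured by RNA sequencing in male C57BL/6J mice, a common inbred laboratory strain, that were 18 weeks old, fed normal chow and given no treatment. The tissues were a visceral depot, epididymal adipose tissue (EAT), and a subcutaneous depot, inguinal adipose tissue (IAT). Digestion with collagenase I parted the adipocytes of each depot from its stromal vascular cells (SVCs), a mixture of the other cell types. Crossing depot with fraction gives 4 groups, with 3 libraries in each. The labels name no altered allele in any group. Whether a library is 1 mouse or a pool is not stated in the labels, and p-values therefore measure only the spread between these libraries.

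De novo fatty acid synthesis runs in the cytosol. Citrate exported from mitochondria is cleaved to acetyl-CoA, which is carboxylated to malonyl-CoA and condensed into palmitate with NADPH as the reductant, and palmitate is then elongated and desaturated. In fat tissue this route converts glucose into stored triglyceride, and its genes are known targets of the factors ChREBP (gene Mlxipl) and SREBP1 (gene Srebf1).

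Levels are in FPKM (mapped fragments scaled to the exon length of a gene and to the size of its library), so that genes of different length can be compared. Values of a group are given in the order of replicates 1, 2 and 3. Differences are of log2(FPKM + 1) ± standard error (SE), a scale that understates the change of genes near 1 FPKM, and folds are of FPKM + 1. The spread of a gene was estimated once over all 4 groups. A gene therefore has the same SE in adipocytes and in SVCs, and it is not the spread of the compared groups alone. A difference was called where limma's Benjamini-Hochberg adjusted p over all 13175 features was under 0.05. An estimated 14.1 M to 24.6 M fragments lay behind a library. This figure is rough, since the deposited confidence bounds it comes from hold more than counting error for some genes. The 12 adipocyte markers were all higher in adipocytes than in SVCs in both depots, and the 10 macrophage and 8 endothelial markers were all lower. Fibroblast markers were lower in adipocytes for 10 of 10 in EAT, and for 9 of 10 in IAT with the other 1 higher. Over all features 31.1% were called higher and 52.7% lower in EAT adipocytes, and 29.8% and 53.9% in IAT adipocytes. The median adipocyte level as a share of the SVC level was 12.65% in EAT and 3.935% in IAT for macrophage markers. It was 17.5% and 19.9% for endothelial markers, and 2.74% and 3.63% for fibroblast markers. EAT adipocyte replicate 1 correlated with the others of its group at r = 0.982 and 0.985 over features. In it 7 of the 10 genes were below the mean of the other libraries of the group, on the log2(FPKM + 1) scale. The median deviation of the 10 genes from that mean was -0.21 (log2).

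The starts of Mlxipl are shown first, because they set what its value can mean. The deposited locus of Mlxipl begins at chromosome 5, position 135106891 (GRCm38, plus strand), which is 1 of its RefSeq starts. The other lies 17001 bases upstream, at position 135089890, and the isoform ChREBP-beta is known to begin at an upstream exon. The deposited value is 1 number for the gene and does not separate isoforms, and whether the authors' annotation held the upstream exon cannot be told from the tables. Promoter windows of RefSeq (GRCm38.p6) run from 250 bases before to 50 bases after a start, and 8 of the 10 genes had an entry, with 10 windows in all. Both Mlxipl windows are printed 5′ to 3′ on the gene's strand, with matches to any of 4 motifs in capitals. The motifs, searched on both strands, were CACGTG (an E-box), TCACNCCAC (a sterol response element), CCAAT and GGGCGG (a GC box). The first window is chr5:135106641-135106940 and the upstream window is chr5:135089640-135089939.
Mlxipl, start of the deposited locus: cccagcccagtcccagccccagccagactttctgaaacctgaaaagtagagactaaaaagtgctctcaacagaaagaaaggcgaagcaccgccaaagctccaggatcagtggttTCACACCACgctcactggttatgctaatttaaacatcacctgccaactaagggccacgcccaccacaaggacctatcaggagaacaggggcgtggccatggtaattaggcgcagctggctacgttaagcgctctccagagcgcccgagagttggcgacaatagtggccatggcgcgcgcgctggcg
Mlxipl, upstream start: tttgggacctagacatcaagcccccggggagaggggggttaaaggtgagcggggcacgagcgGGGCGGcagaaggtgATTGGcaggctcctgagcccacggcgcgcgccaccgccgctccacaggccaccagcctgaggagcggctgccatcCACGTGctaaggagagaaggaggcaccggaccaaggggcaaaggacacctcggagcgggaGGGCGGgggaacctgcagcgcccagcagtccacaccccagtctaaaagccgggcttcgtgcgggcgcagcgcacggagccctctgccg
The window at the deposited start held 1 match to TCACNCCAC, 136 bases before the start. The upstream window held 1 CACGTG, 1 CCAAT on the minus strand and 2 GGGCGG. Among 32851 RefSeq promoter windows of the same length, 1.24% held TCACNCCAC, 7.15% held CACGTG, 37.4% held CCAAT and 35.7% held GGGCGG.

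Mlxipl, the glucose-sensing factor, was at 24.5, 33.7 and 31.5 FPKM in EAT adipocytes and 26.2, 32.8 and 33.3 FPKM in IAT adipocytes. It was at 0.447, 0.531 and 0.454 FPKM in EAT SVCs and 0.359, 0.366 and 0.291 FPKM in IAT SVCs. The adipocyte groups overlapped each other and stood far above both SVC groups, where every library was below 1 FPKM and the deposited confidence bounds lay 23.6% to 36.5% from the value. The depot difference in adipocytes was 0.04 ± 0.12 (adjusted p = 0.807), with a 95% confidence interval from -0.21 to 0.30. Without EAT adipocyte replicate 1, IAT adipocyte replicate 2 or IAT adipocyte replicate 3, this small difference took the other sign, at -0.09, -0.0059 and -0.016. In SVCs the IAT libraries were all below the EAT libraries, with a difference of -0.14 ± 0.12 (adjusted p = 0.369). The SE of that difference also holds the spread of the adipocyte libraries. With a pseudocount of 0.1 that difference was -0.40 and called (adjusted p = 0.0418).

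**Figure D1:**
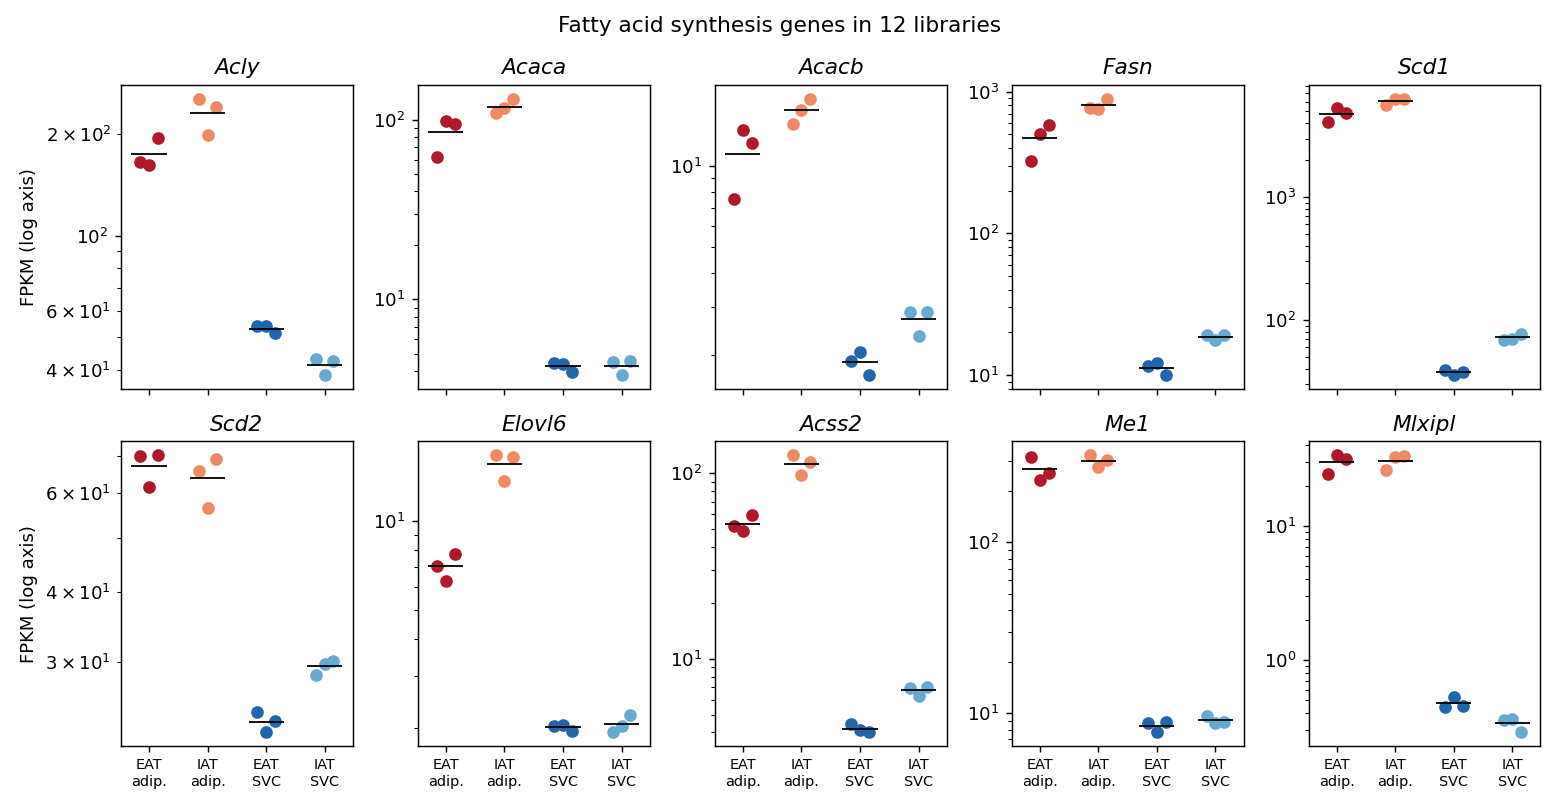
Level of each of the 10 genes in FPKM (log axis) in 12 libraries, 1 point per library, by group of depot and fraction (adip. is adipocyte). In every panel the 6 adipocyte libraries lie above the 6 SVC libraries, and Elovl6 and Acss2 show separated EAT and IAT adipocyte groups.

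Both sources of cytosolic acetyl-CoA were higher in IAT than in EAT adipocytes. Acly, the lyase that cleaves citrate, was at 166, 162 and 195 FPKM in EAT adipocytes and 254, 199 and 241 FPKM in IAT adipocytes. Acss2, the synthetase that activates acetate, was at 52.0, 48.6 and 59.9 FPKM in EAT adipocytes and 125, 98.1 and 115 FPKM in IAT adipocytes. The groups did not overlap for either gene, although for Acly the highest EAT library and the lowest IAT library were close. The difference was 0.40 ± 0.10 for Acly (adjusted p = 0.00801), which is 1.32-fold. For Acss2 it was 1.06 ± 0.098 (adjusted p = 4.1e-06), which is 2.08-fold.

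In SVCs the same pair went opposite ways between depots. Acly was at 53.9, 53.8 and 51.5 FPKM in EAT SVCs and 43.1, 38.6 and 42.5 FPKM in IAT SVCs, so that the IAT libraries were all lower (-0.35 ± 0.10, adjusted p = 0.0141). Acss2 was at 4.44, 4.14 and 4.03 FPKM in EAT SVCs and 6.97, 6.32 and 7.08 FPKM in IAT SVCs, so that the IAT libraries were all higher (0.58 ± 0.098, adjusted p = 4.3e-04). The call on Acly in SVCs was lost without IAT SVC replicate 2 (-0.30, adjusted p = 0.0661) and under median-of-ratios scaling (-0.26, adjusted p = 0.0657).

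The carboxylases differ in where their product is used. Acaca encodes acetyl-CoA carboxylase 1, whose malonyl-CoA feeds synthesis, and it was at 62.0, 98.1 and 94.8 FPKM in EAT adipocytes and 108, 116 and 131 FPKM in IAT adipocytes. Acacb encodes acetyl-CoA carboxylase 2 at the mitochondrial surface, whose malonyl-CoA restrains fatty acid import for oxidation, and it was at 7.53, 13.5 and 12.1 FPKM in EAT adipocytes and 14.3, 16.0 and 17.7 FPKM in IAT adipocytes. For both, EAT adipocyte replicate 1 was the lowest adipocyte library and the IAT libraries were all above the EAT libraries. The difference was 0.49 ± 0.15 for Acaca (adjusted p = 0.0191) and 0.53 ± 0.16 for Acacb (adjusted p = 0.0219). Without EAT adipocyte replicate 1 the differences were 0.28 and 0.30 and both were still called. Without IAT adipocyte replicate 3 they were 0.42 (adjusted p = 0.0765) and 0.46 (adjusted p = 0.0806), and neither was called. Both calls were also lost after rescaling to TPM (adjusted p = 0.0937 and 0.0919). That on Acacb was lost as well without IAT adipocyte replicate 2 (adjusted p = 0.0568) and with no filter on low values (adjusted p = 0.0504).

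In SVCs Acaca was at 4.42, 4.35 and 3.96 FPKM in EAT and 4.50, 3.78 and 4.56 FPKM in IAT, groups that overlapped (0.0086 ± 0.15, adjusted p = 0.972). Acacb was at 1.89, 2.05 and 1.68 FPKM in EAT SVCs and 2.87, 2.35 and 2.88 FPKM in IAT SVCs, groups that did not overlap, with a difference short of the threshold (0.36 ± 0.16, adjusted p = 0.0928). Acacb was called higher there with a pseudocount of 0.1 (0.51, adjusted p = 0.0483), under median-of-ratios scaling (0.41, adjusted p = 0.0484), with the SVC libraries fitted alone (adjusted p = 0.00748) and without EAT adipocyte replicate 1 (adjusted p = 0.00478). Acaca was the more abundant carboxylase throughout, by 7.20 to 8.23 times in the 6 adipocyte libraries, 2.13 to 2.36 times in EAT SVCs and 1.57 to 1.61 times in IAT SVCs. The mean of log2((Acacb + 1)/(Acaca + 1)) was -2.83 ± 0.048 (SD, n = 6) in adipocytes and -0.69 ± 0.20 (SD, n = 6) in SVCs, a difference of -2.13 (exact two-sided permutation test, p = 0.00216, the smallest the 924 splits allow). The difference was -1.97 within EAT and -2.30 within IAT. No stretch of 50 bases was shared between the exons of Acaca and Acacb.

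Fasn, the multifunctional synthase that builds palmitate, was at 323, 504 and 583 FPKM in EAT adipocytes and 768, 750.4 and 891 FPKM in IAT adipocytes. The lowest IAT library lay well above the highest EAT library, and EAT adipocyte replicate 1 was the lowest of all. The difference was 0.81 ± 0.17 (adjusted p = 0.00289), which is 1.75-fold, and 0.56 without EAT adipocyte replicate 1. In SVCs Fasn was at 11.6, 12.3 and 9.94 FPKM in EAT and 19.1, 17.6 and 19.2 FPKM in IAT, again with no overlap (0.68 ± 0.17, adjusted p = 0.00696). Among the 10 genes, Fasn and Acss2 were the only ones whose IAT level was called higher in both fractions under all 19 alternative settings of each comparison.

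The promoter windows of 3 genes with raised levels in IAT adipocytes, Fasn, Acss2 and Elovl6, are printed to show how they differ in these motifs, again with matches in capitals. Fasn is on the minus strand at chr11:120824498-120824797, Acss2 on the plus strand at chr2:155517793-155518092 and Elovl6 on the plus strand at chr3:129532136-129532435.
Fasn: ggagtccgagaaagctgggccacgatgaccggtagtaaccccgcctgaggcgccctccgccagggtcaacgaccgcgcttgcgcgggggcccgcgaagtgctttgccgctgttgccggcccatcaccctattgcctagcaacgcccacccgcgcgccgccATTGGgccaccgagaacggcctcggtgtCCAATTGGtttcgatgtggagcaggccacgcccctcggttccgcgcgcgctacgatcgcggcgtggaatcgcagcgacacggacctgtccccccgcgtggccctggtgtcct
Acss2: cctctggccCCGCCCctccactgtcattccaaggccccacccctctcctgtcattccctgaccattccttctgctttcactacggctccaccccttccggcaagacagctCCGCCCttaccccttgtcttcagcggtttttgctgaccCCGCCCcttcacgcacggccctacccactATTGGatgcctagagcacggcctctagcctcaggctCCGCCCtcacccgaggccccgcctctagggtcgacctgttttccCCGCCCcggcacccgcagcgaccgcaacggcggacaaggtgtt
Elovl6: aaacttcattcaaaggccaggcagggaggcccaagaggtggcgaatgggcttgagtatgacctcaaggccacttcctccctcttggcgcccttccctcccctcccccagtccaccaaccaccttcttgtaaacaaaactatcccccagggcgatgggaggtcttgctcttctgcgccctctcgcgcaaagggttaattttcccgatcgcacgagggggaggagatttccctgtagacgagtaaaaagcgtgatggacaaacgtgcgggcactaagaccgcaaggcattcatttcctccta
The Fasn window held 3 CCAAT matches, 1 on the plus strand and 2 on the minus strand, and the last pair overlapped, so that it reads as 1 block of capitals. The Acss2 window held 1 CCAAT and 5 GGGCGG, all on the minus strand. The Elovl6 window held none of the 4 motifs. Over the 10 windows, CCAAT occurred in 6, GGGCGG in 4, CACGTG in 1 and TCACNCCAC in 1. A match is a description of the letters, and its absence says only that the letters are not in that window. In the GENCODE models, exons of Acss2 shared 395 bases with Gss, 335 with Acss2os and 197 with Ggt7, all on the opposite strand. Other overlaps were 235 bases for Mlxipl, 34 for Elovl6 and 30 for Me1 on the opposite strand, and 61 for Scd2 on the same strand. The Acss2 model ends at position 155585724, beyond the deposited locus, which ends at 155562743. Whether the shared bases lie inside the deposited loci was not determined. Whether strand was used in counting is not given in the sources used here. The deposited values may hold reads of the overlapping genes only where the shared bases lie inside the loci.

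Me1, the malic enzyme that supplies NADPH, was at 318, 233 and 254 FPKM in EAT adipocytes and 324, 276 and 303 FPKM in IAT adipocytes. The groups overlapped, and EAT adipocyte replicate 1 was the highest of its group here while it was the lowest for Fasn. The difference was 0.17 ± 0.11 (adjusted p = 0.23), with a 95% confidence interval from -0.06 to 0.41, and without that library it was 0.30 and called (adjusted p = 0.00902). In SVCs Me1 was at 8.73, 7.74 and 8.82 FPKM in EAT and 9.65, 8.79 and 8.82 FPKM in IAT, groups that overlapped (0.098 ± 0.11, adjusted p = 0.519).

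Elovl6, the elongase that extends palmitate to stearate, was at 7.08, 6.27 and 7.78 FPKM in EAT adipocytes and 16.7, 13.7 and 16.6 FPKM in IAT adipocytes. Every IAT library was far above every EAT library. The difference was 1.05 ± 0.091 (adjusted p = 2.2e-06), which is 2.07-fold in FPKM + 1, for means of 7.04 and 15.7 FPKM. In SVCs Elovl6 was at 2.04, 2.04 and 1.95 FPKM in EAT and 1.94, 2.03 and 2.22 FPKM in IAT, groups that overlapped (0.024 ± 0.091, adjusted p = 0.866).

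Scd1 and Scd2 encode stearoyl-CoA desaturases, which place the double bond that makes oleate and palmitoleate. Scd1 was at 4102, 5340 and 4850 FPKM in EAT adipocytes and 5619, 6246 and 6319 FPKM in IAT adipocytes, ranking 4th and 5th of 24881 features by group mean. The IAT libraries were all above the EAT libraries (0.35 ± 0.11, adjusted p = 0.022). Leaving out IAT adipocyte replicate 2 ended the call (adjusted p = 0.0683), as did leaving out replicate 3 (adjusted p = 0.0748) and rescaling to TPM (adjusted p = 0.104). In SVCs Scd1 was at 39.3, 35.4 and 37.4 FPKM in EAT and 69.1, 69.9 and 77.0 FPKM in IAT, a 1.90-fold difference with no overlap (0.93 ± 0.11, adjusted p = 1.9e-05).

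Scd2 did not follow its paralog in adipocytes. It was at 70.1, 61.5 and 70.1 FPKM in EAT adipocytes and 65.8, 56.6 and 69.0 FPKM in IAT adipocytes, groups that overlapped. The difference was -0.08 ± 0.084 (adjusted p = 0.506), with a 95% confidence interval from -0.26 to 0.11, and it took the other sign under median-of-ratios scaling (0.069) and without IAT adipocyte replicate 2 (0.0057). In SVCs Scd2 was at 24.4, 22.5 and 23.5 FPKM in EAT and 28.5, 29.8 and 30.2 FPKM in IAT, with every IAT library higher (0.32 ± 0.084, adjusted p = 0.00901).

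The ratio of the desaturases separated the fractions without overlap. Scd1 was 58.5 to 110 times as abundant as Scd2 in the 6 adipocyte libraries, 1.57 to 1.61 times in EAT SVCs and 2.35 to 2.55 times in IAT SVCs. The mean of log2((Scd1 + 1)/(Scd2 + 1)) was 6.34 ± 0.32 (SD, n = 6) in adipocytes and 0.95 ± 0.34 (SD, n = 6) in SVCs, a difference of 5.38 (exact two-sided permutation test, p = 0.00216, the smallest possible). Of the 50-base stretches in Scd1 exons, 3.45% were shared with Scd3, 3.00% with Scd2 and 1.74% with Scd4, and how the authors' counting assigned reads from shared stretches is not given in the sources used here. Beside so abundant a gene, the adipocyte values of Scd2, Scd3 and Scd4, and with them the ratio of Scd1 to Scd2, are therefore uncertain.

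**Figure D2:**
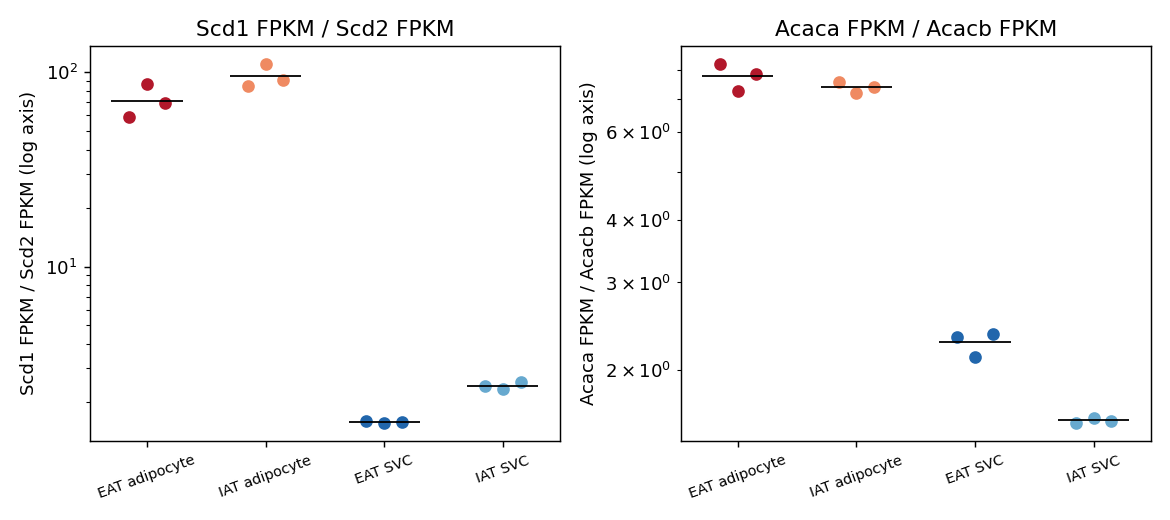
Ratio of Scd1 to Scd2 (left) and of Acaca to Acacb (right) in FPKM (log axis), 1 point per library, by group. Scd1 to Scd2 is 58.5 to 110 in adipocytes and 1.57 to 2.55 in SVCs, and Acaca to Acacb is 7.20 to 8.23 in adipocytes and 1.57 to 2.36 in SVCs.

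Counted together, 7 of the 10 genes were called higher in IAT than in EAT adipocytes and 0 lower, against 10.3% of all tested features called higher and 27.3% called lower. The groups did not overlap for the same 7 genes, with every IAT library higher, as for 13.5% of all features. The median difference of the 10 genes was 0.45, beside -0.10 over all features. Median-of-ratios scaling moved that overall median to 0.0038 and the calls over all features from 1363 higher and 3597 lower to 2157 higher and 2163 lower, and 7 of the 10 genes were again called higher. The count was 4 after rescaling to TPM, 3 when only the adipocyte libraries were fitted, 4 without IAT adipocyte replicate 3 and 8 without EAT adipocyte replicate 1. Fasn, Elovl6 and Acss2 were called under all 19 alternative settings. Acly lost the call in the fit on the adipocyte libraries alone (adjusted p = 0.0504), as did Acaca, Acacb and Scd1 (adjusted p = 0.0851, 0.0908 and 0.236).

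Several marker lists moved with depot in the adipocyte libraries. Of the adipocyte markers themselves, 2 of 12 were called higher and 5 lower in IAT. Fibroblast markers were higher for 6 of 10 and lower for 1, endothelial markers higher for 4 of 8 and B cell markers higher for 3 of 5. Of the brown adipocyte markers, 5 of 5 tested were higher in IAT adipocytes. The sum over 7 such markers was 13.2 to 23.5 FPKM in EAT and 61.4 to 72.2 FPKM in IAT. Most of that sum was Cidea (means of 2.12 FPKM in EAT and 40.6 FPKM in IAT) and Cox7a1 (13.2 and 21.0 FPKM). Ucp1 was at only 0.223 FPKM in EAT and 0.570 FPKM in IAT adipocytes. Dio2, which was not tested, was at 0.188 and 0.117 FPKM. Macrophage markers were lower in IAT adipocytes for 10 of 10, with a sum of 497 to 640 FPKM in EAT and 88.0 to 131 FPKM in IAT. Mesothelial markers were lower in IAT adipocytes for 6 of 6, with a sum of 17.1 to 19.7 FPKM in EAT and 0.479 to 0.516 FPKM in IAT, and Schwann cell markers were higher for 6 of 6 (9.50 to 12.1 and 39.5 to 49.1 FPKM). No brown adipocyte or macrophage marker was at 0 in all libraries of an adipocyte group, while 1 mesothelial marker was in IAT and 1 Schwann cell marker in EAT. The part of these lists in the depot difference of the synthesis genes was not tested. In such bulk samples, fewer cells of a type and less RNA per cell cannot be told apart.

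In SVCs 4 of the 10 genes were called higher in IAT, Fasn, Scd1, Scd2 and Acss2, and 1 lower, Acly, where 14% of all features were called higher and 26.2% lower. Fasn, Scd1 and Acss2 kept the call under all 19 alternatives, and Scd2 lost it after rescaling to TPM (0.22, adjusted p = 0.0881). Over all features the calls were 1843 higher and 3458 lower, 1285 and 4019 after rescaling to TPM, and 2373 and 2631 under median-of-ratios scaling. Adipocyte markers moved the same way, with 11 of 12 called higher in IAT SVCs and a median difference of 0.64. Their sum was 4544 to 5314 FPKM in EAT SVCs and 6633 to 7466 FPKM in IAT SVCs. Most of that sum was Fabp4, the 1 marker not called, at means of 4728.5 FPKM in EAT SVCs and 6625.5 FPKM in IAT SVCs. None of the 12 was at 0 in all libraries of an SVC group. Markers of T cells (6 of 6), B cells (5 of 5) and Schwann cells (6 of 6) were also higher in IAT SVCs, and those of mesothelium (6 of 6) and macrophages (9 of 10) lower. The part of these lists in the SVC differences was not tested.

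The interaction asked whether the depot difference itself differed between fractions, as the difference in adipocytes minus that in SVCs. It was called positive for 3 of the 10 genes, where 14.7% of all features were, and negative for 2, where 17.8% were. Elovl6 had the largest, at 1.03 ± 0.13 (adjusted p = 5.7e-05), being higher in IAT adipocytes with overlapping SVC groups. Acly was at 0.76 ± 0.14 (adjusted p = 0.00147), being higher in IAT among adipocytes and lower in IAT among SVCs. Both were called under all 18 alternatives of this comparison. Acss2 was at 0.48 ± 0.14 (adjusted p = 0.0201), a call lost after rescaling to TPM, with a pseudocount of 0.1 and without any of 3 libraries, IAT adipocyte replicate 1 and EAT SVC replicate 1 and IAT SVC replicate 2 (adjusted p = 0.0534 to 0.0615 over these 5 settings).

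The desaturases went the other way, with a more positive IAT minus EAT difference in SVCs than in adipocytes. The interaction was -0.57 ± 0.15 for Scd1 (adjusted p = 0.0124) and -0.39 ± 0.12 for Scd2 (adjusted p = 0.023), the latter resting on uncertain adipocyte values. After rescaling to TPM neither was called, at adjusted p = 0.0836 and 0.0923, and the call on Scd2 was also lost under median-of-ratios scaling (adjusted p = 0.0652) and without EAT adipocyte replicate 3, IAT adipocyte replicate 2, EAT SVC replicate 2, IAT SVC replicate 2 or IAT SVC replicate 3. For the other 5 genes the interaction was not called. It was 0.49 ± 0.21 for Acaca (adjusted p = 0.0941), and from 0.076 for Me1 to 0.18 for Mlxipl among the remaining 4.

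**Figure D3:**
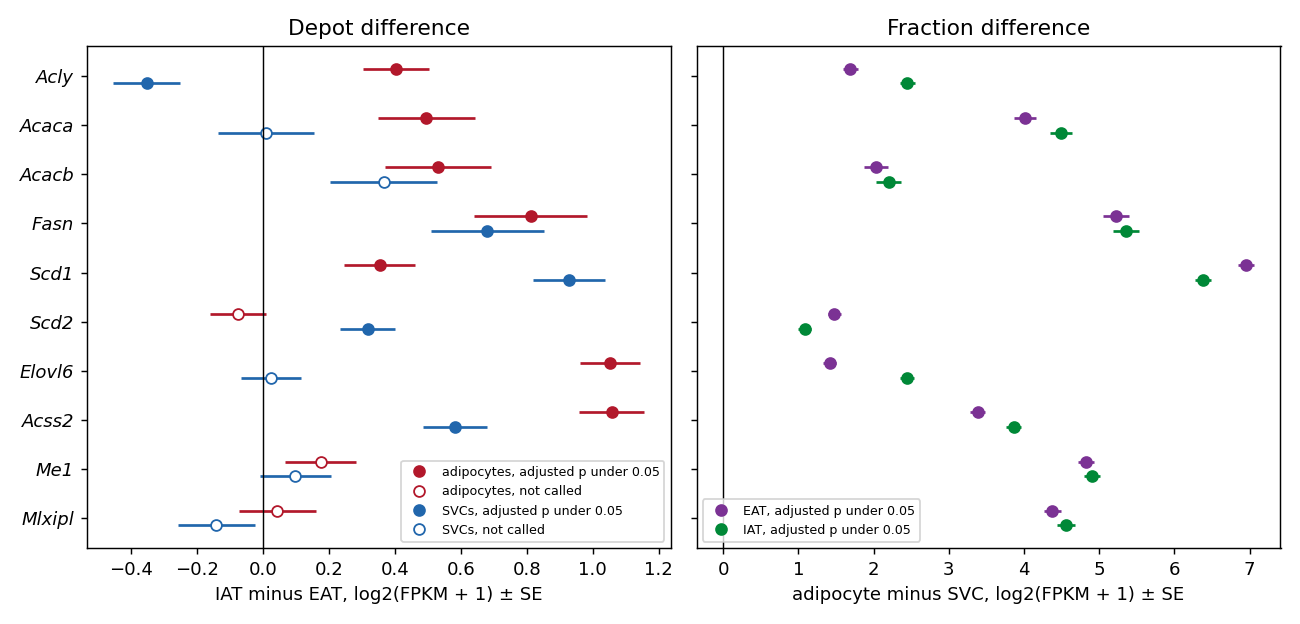
Left, IAT minus EAT difference of each gene in adipocytes and in SVCs. Right, adipocyte minus SVC difference in EAT and in IAT. Points are differences of log2(FPKM + 1), bars are SE and open points were not called. Elovl6 and Acss2 reach 1.05 and 1.06 in adipocytes on the left, and Acly lies on opposite sides of 0 in the fractions.

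The measured level of each of the 10 genes was higher in the adipocyte fraction. All 10 were called higher in adipocytes than in SVCs in EAT, where 31.1% of features were. All 10 were in IAT too, where 29.8% were. Each call held under all 19 alternatives, but none of these changed how reads were assigned. The call on Scd2 rests on uncertain adipocyte values, since 2.68% of its 50-base stretches were shared with the far more abundant Scd1. The fraction difference was at least 2-fold for all 10 in both depots, as it was for 13% of features in EAT and 13.2% in IAT. The median difference of the 10 genes was 3.70 in EAT and 4.18 in IAT, beside -0.31 and -0.34 over all features. Over all features, median-of-ratios scaling moved the calls from 4093 higher and 6948 lower to 5301 and 5667 in EAT, and from 3921 and 7107 to 5331 and 5590 in IAT. The sum of the 10 genes was 5131 to 6501 FPKM in EAT adipocytes, 7321 to 8135 FPKM in IAT adipocytes, 143 to 151 FPKM in EAT SVCs and 179 to 195 FPKM in IAT SVCs. Scd1 alone made up 76.8% to 82.1% of that sum in adipocytes, 24.4% to 26.1% in EAT SVCs and 37.2% to 39.5% in IAT SVCs.

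The size of the fraction difference ranged widely along the pathway. On the log2(FPKM + 1) scale, Scd1 stood highest, at 6.95 ± 0.11 in EAT (adjusted p = 2.9e-14) and 6.38 ± 0.11 in IAT (adjusted p = 7.7e-14). Fasn followed at 5.22 and 5.35 in EAT and IAT, then Me1 at 4.83 and 4.90, Mlxipl at 4.38 and 4.56, Acaca at 4.01 and 4.49 and Acss2 at 3.39 and 3.86. Acacb was at 2.03 and 2.20, Acly at 1.69 and 2.45, Elovl6 at 1.41 and 2.44, and Scd2 at 1.48 and 1.08. This scale understates Mlxipl, which was below 1 FPKM in SVCs. With a pseudocount of 0.1 it was at 5.69 in EAT and 6.13 in IAT, above Fasn at 5.33 and 5.42.

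The SVC level as a share of the adipocyte level carries no pseudocount, and its order differs, with Mlxipl lowest in IAT and second lowest in EAT. In EAT it was 0.785% for Scd1, 1.60% for Mlxipl and 2.40% for Fasn, and in IAT 1.19%, 1.10% and 2.32%. At the other end it was 30.4% in EAT and 17.9% in IAT for Acly, 28.5% and 13.1% for Elovl6, and 34.9% and 46.2% for Scd2. The 12 adipocyte markers had a median share of 0.382% in EAT, with a range from 0.0952% to 20.9%, and of 1.07% in IAT, with a range from 0.329% to 24.0%. All 10 synthesis genes lay above the marker median in both depots. The markers were chosen as adipocyte genes, so a share above their median does not set the synthesis genes apart. Over all features the median adipocyte minus SVC difference was -0.31 in EAT and -0.34 in IAT. The share of Scd2 exceeded that of every marker in both depots, and those of Acly and Elovl6 did so in EAT. The share of Scd2 rests on its uncertain adipocyte values.

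**Figure D4:**
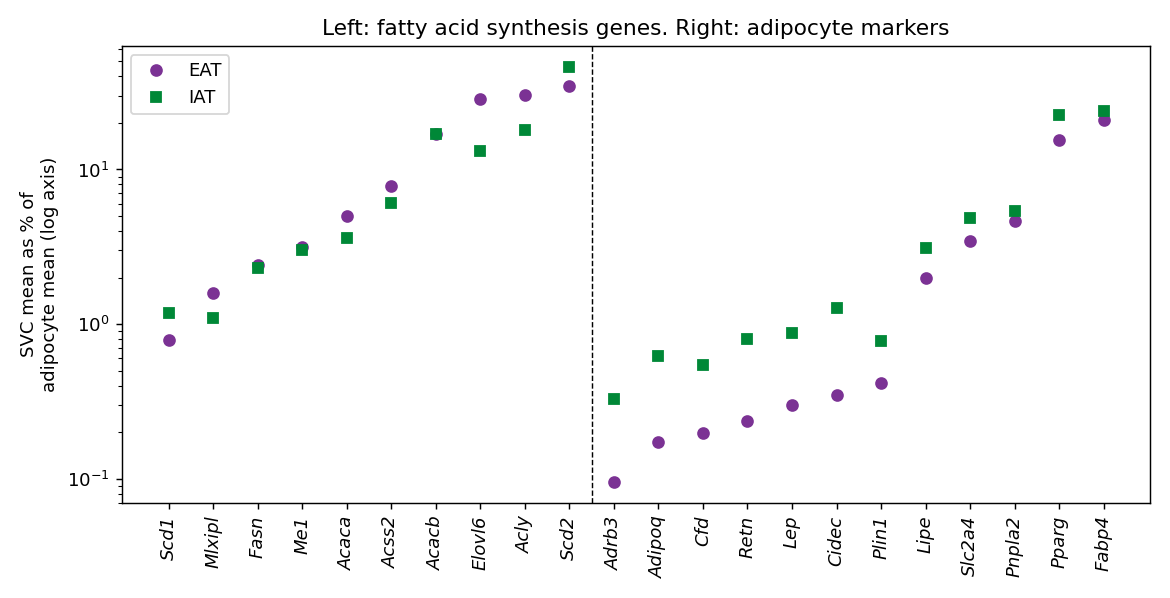
SVC mean as a percentage of the adipocyte mean in FPKM (log axis) for the 10 synthesis genes (left of the dashed line) and 12 adipocyte markers (right), in EAT and IAT. Scd2 is at 34.9% and 46.2%, above all markers, while Scd1 is at 0.785% and 1.19%.

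Genes that work beside the pathway were taken as 5 lists. Of 15 tested genes for carbon supply and citrate export, 9 were called higher and 0 lower in IAT than in EAT adipocytes, where 10.3% of all features were higher and 27.3% lower. Slc25a1, the mitochondrial citrate carrier upstream of Acly, was at 230 ± 22.8 FPKM in EAT and 407 ± 10.5 FPKM in IAT adipocytes (SD, n = 3), a difference of 0.82 ± 0.10 (adjusted p = 5.4e-05). Pcx, pyruvate carboxylase, was at 320 ± 52.8 and 357 ± 18.9 FPKM (0.17 ± 0.12, adjusted p = 0.278), groups that overlapped, with a call under median-of-ratios scaling (0.32, adjusted p = 0.0418). In SVCs, where 14% of all features were higher in IAT and 26.2% lower, 1 gene of this list was higher and 1 lower, and the one higher was Pcx, at 2.33 ± 0.384 FPKM in EAT and 4.95 ± 0.327 FPKM in IAT.

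Of 14 genes for NADPH supply, 3 were called higher and 4 lower in IAT adipocytes, and 0 higher and 6 lower in IAT SVCs. Over all features 10.3% were called higher and 27.3% lower in IAT adipocytes, and 14% higher and 26.2% lower in IAT SVCs. The adipocyte count of lower genes is near that share of all features. Pgd, a dehydrogenase of the pentose phosphate pathway, was at 242 ± 32.2 FPKM in EAT and 186 ± 4.70 FPKM in IAT adipocytes (-0.37 ± 0.096, adjusted p = 0.01), a call lost under median-of-ratios scaling (-0.22, adjusted p = 0.141). G6pdx, the first enzyme of that pathway, was at 101 ± 17.7 and 84.8 ± 2.91 FPKM, and Idh1, the cytosolic isocitrate dehydrogenase, at 133 ± 12.9 and 120 ± 3.93 FPKM, neither called (adjusted p = 0.111 and 0.171). Without EAT adipocyte replicate 1 the difference of G6pdx went from -0.23 to -0.38 and was called (adjusted p = 2.1e-04), and under median-of-ratios scaling that of Idh1 went from -0.14 to 0.0069.

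Of 19 tested genes for elongation, desaturation and malonyl-CoA use, 4 were called higher and 8 lower in IAT adipocytes, and 0 higher and 7 lower in IAT SVCs, beside 10.3% and 27.3% of all features in adipocytes and 14% and 26.2% in SVCs. Acsl1, which activates long-chain fatty acids, was at 243 ± 33.8 FPKM in EAT and 434 ± 32.2 FPKM in IAT adipocytes (0.84 ± 0.099, adjusted p = 3.4e-05). Fads2, which desaturates polyunsaturated fatty acids, was at 0.772 ± 0.229 FPKM in EAT and 2.01 ± 0.319 FPKM in IAT adipocytes, but at 16.7 ± 0.881 and 10.9 ± 0.760 FPKM in SVCs. It was thus lower in adipocytes than in SVCs in both depots (-3.33 ± 0.11 in EAT, adjusted p = 1.1e-11, and -1.98 ± 0.11 in IAT, adjusted p = 1.4e-09). Elovl5, an elongase of polyunsaturated fatty acids, was lower in adipocytes as well (-1.17 and -1.28), unlike the 10 synthesis genes.

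Of 22 regulators, 2 were called higher and 3 lower in IAT adipocytes, and 4 higher and 5 lower in IAT SVCs, shares near or below those of all features (10.3% and 27.3% in adipocytes, 14% and 26.2% in SVCs). Srebf1 was at 98.8 ± 9.46 FPKM in EAT and 119 ± 19.1 FPKM in IAT adipocytes, a difference of 0.26 ± 0.12 that was not called (adjusted p = 0.116) but was under median-of-ratios scaling (0.40, adjusted p = 0.0178) and without IAT adipocyte replicate 1 (0.39, adjusted p = 0.0213). Nr1h3, the nuclear receptor LXR alpha, was at 63.1 ± 1.63 and 58.8 ± 2.03 FPKM (adjusted p = 0.429). Thrsp, a lipogenic protein also called Spot 14, was at 1700 ± 495 and 1357 ± 55.5 FPKM in adipocytes (-0.29 ± 0.16, adjusted p = 0.171), and at 10.5 ± 1.07 FPKM in EAT SVCs and 31.8 ± 1.64 FPKM in IAT SVCs (1.52 ± 0.16, adjusted p = 6.3e-06). Its adipocyte difference was called after rescaling to TPM (-0.32, adjusted p = 0.0365) and without EAT adipocyte replicate 2 (-0.46, adjusted p = 0.0241), and ranged from -0.46 to -0.064 with 1 library left out. Of the 8 tested genes for the separate mitochondrial fatty acid synthesis, 1 was higher and 2 were lower in IAT adipocytes, and 2 higher and 0 lower in IAT SVCs.

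Between fractions, 31.1% of all features were called higher and 52.7% lower in EAT adipocytes, and 29.8% and 53.9% in IAT adipocytes. Against that background in EAT, 13 of 15 carbon supply genes were called higher and 2 lower, 11 of 14 NADPH genes higher and 3 lower, and 8 of 8 mitochondrial synthesis genes higher. Regulators were 10 higher and 9 lower of 22, and the elongation list was 10 higher and 9 lower of 19. In IAT the corresponding counts were 14 and 1, 10 and 4, 8 and 0, 11 and 8, and 10 and 7.

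**Figure D5:**
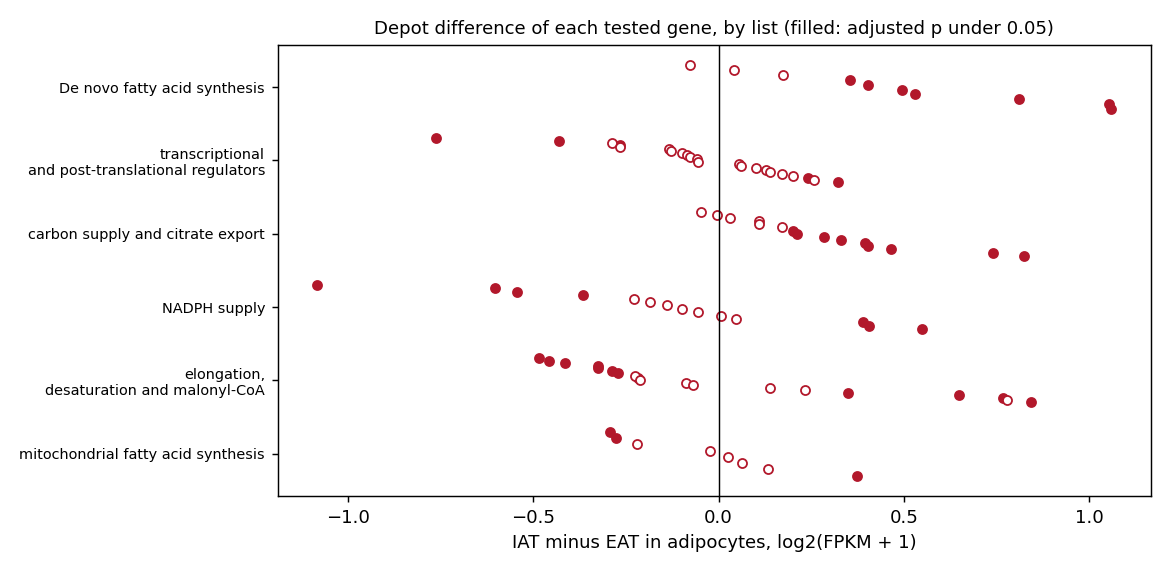
IAT minus EAT difference in adipocytes, in log2(FPKM + 1), for each tested gene of the 10 synthesis genes and of 5 neighbouring lists. Each point is 1 gene and filled points were called. Of the 10 synthesis genes 7 are filled and lie above 0, and of the 15 carbon supply genes 9 are.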

How the data were processed

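FPKM values per gene were taken from 1 deposited table per library, for 12 libraries in 4 groups of 3, grouped by the depot and cell type in the labels. The authors made these FPKM values with TopHat and Cufflinks on GRCm38 (mm10), per the submitters' processing notes. Versions, annotation and strand setting are not given in the sources used here. The tables also hold the authors' confidence bounds, each from 1 library and so without the spread between libraries. For some genes they were wider than counting error alone would give. In EAT adipocyte replicate 1 they lay 4.29% from the value for Me1 (318 FPKM, 3848 exon bases). For Fasn (323 FPKM, 10947 exon bases) they lay 0.652% from the value. From these bounds 57.5% to 61.5% of the low values came to whole fragments within 0.02, so no test for counts was run.

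Of 24890 features, 9 had a failed estimate in some library and were left out. The 13175 features that reached 1 FPKM in 3 or more libraries were fitted as log2(FPKM + 1) with limma 3.58.1 (lmFit, eBayes with trend, R 4.3.3) on the means of the 4 groups, without a block. Tests were two-sided, with Benjamini-Hochberg adjustment within each of 5 contrasts and a threshold of 0.05. Ratios of paralogs were compared by exact permutation. The fit was also run on simulated data with independent noise, equal in all groups, and few changed genes. In these data most features were called between fractions, so that run does not vouch for the calls here. Python 3.11.15, pandas 2.3.3, SciPy 1.17.1 and matplotlib 3.10.9 were used for summaries and plots. Alternatives were a pseudocount of 0.1, no filter, a filter on the mean, TPM, median-of-ratios scaling, the compared groups alone, replicate number as a block, and leaving out each library.

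The genes, lists and tests were chosen with earlier results of these data known. All 10 genes were named in every comparison, and of the 5 neighbouring lists only 20 preset genes could be named. Gene models came from GENCODE vM21 and promoter sequences from RefSeq.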

Additional observations from a re-analysis of the deposited data

Results flagged for a closer look

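The depot difference differed between adipocytes and SVCs, by limma's interaction test at an adjusted p under 0.05, for 5 of the 10 synthesis genes, 3 positive and 2 negative. Over all features 14.7% were called positive and 17.8% negative. The difference of the depot differences, on the log2 scale, was 1.03 for Elovl6, 0.756 for Acly, 0.476 for Acss2, -0.394 for Scd2 and -0.574 for Scd1. The calls on Elovl6 and Acly held under all 18 alternatives, and those on Acss2, Scd1 and Scd2 did not.

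The same test was passed by 8 of the named genes of the neighbouring lists. It was positive for Fads2 at 1.34, Acsl1 at 0.609, Slc25a1 at 0.598, Fads1 at 0.551, Insig1 at 0.407 and Idh1 at 0.343, and negative for Thrsp at -1.80 and Pcx at -0.674. The call on Idh1 was lost in 8 of the 12 fits that left out 1 library (adjusted p = 0.0515 to 0.0729), and that on Fads1 after rescaling to TPM (adjusted p = 0.0512). Groups of 3 libraries are too small for a test of single outlying libraries, and none was made.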

How the results depend on the processing

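Of 940 recomputed values for the 10 synthesis genes, 889 kept their direction and side of the threshold, 29 lost the call, 8 gained it and 14 changed sign; for the named neighbouring genes the numbers were 1707, 25, 19 and 30. The fraction calls on all 10 genes held throughout, but no alternative changed how reads shared by Scd1 and Scd2 were assigned. The ratio of Acacb to Acaca changed by -1.97 within EAT and -2.30 within IAT, which have no test of their own. Members higher in IAT adipocytes numbered 4 after rescaling to TPM, 3 with the compared groups alone, and 4 to 8 when 1 library was left out. Members lower in IAT SVCs numbered 2 with a pseudocount of 0.1, 0 under median-of-ratios scaling and 0 to 1 with 1 library left out. Negative interactions numbered 0 after rescaling to TPM, 1 under median-of-ratios scaling and 1 to 2 with 1 library left out. The cause was not tested.

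Sign changes of a value that then passed the threshold occurred once, for Mid1ip1 between IAT fractions (0.37, adjusted p = 0.00593, under median-of-ratios scaling and 0.11 after rescaling to TPM). Under median-of-ratios scaling, the adipocyte depot difference became 0.069 for Scd2, 0.046 for Nr1h3, 0.013 for Mid1ip1, 0.0069 for Idh1, 0.054 for Elovl5 and 0.073 for Mlycd, the SVC depot difference 0.027 for Nr1h3 and 0.0030 for Elovl1, and the interaction 0.019 for Nr1h3. After rescaling to TPM, the SVC depot difference became -0.085 for Acaca, -0.056 for Elovl6, -0.078 for Mlx and -0.073 for Elovl5, and the interaction 0.027 for Nr1h3.

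With 1 library left out, the adipocyte depot difference ranged from -0.14 to 0.0057 for Scd2, -0.09 to 0.15 for Mlxipl and -0.12 to 0.47 for Scd4. The SVC depot difference ranged from -0.031 to 0.079 for Acaca, -0.013 to 0.053 for Elovl6, -0.15 to 0.022 for Nr1h3, -0.0075 to 0.072 for Mlx and -0.0039 to 0.066 for Elovl5. The fraction difference ranged from -0.028 to 0.065 for Insig1 in EAT, and in IAT from -0.11 to 0.085 for Mid1ip1 and -0.0015 to 0.14 for Fads1. The interaction ranged from -0.066 to 0.32 for Acacb, -0.12 to 0.31 for Fasn, -0.020 to 0.20 for Me1, -0.12 to 0.052 for Nr1h3, -0.017 to 0.062 for Mlx, -0.023 to 0.17 for Pgd, -0.068 to 1.18 for Scd3 and -0.16 to 0.42 for Scd4.

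Deviations of libraries with the same replicate number from their group means correlated at r from -0.312 to 0.373. For different numbers r was from -0.459 to 0.367. With 3 libraries a group, these values cannot tell whether the numbers pair libraries. With replicate number as a block the members called were 7 higher in IAT adipocytes, 4 higher and 1 lower in IAT SVCs, 10 and 10 between fractions, and 3 positive and 2 negative interactions, as without it. Among the 10 synthesis genes, Mlxipl in SVCs is the value most limited by depth, with bounds 23.6% to 36.5% from the value.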
